A study of Mus musculus with 8 samples.

Results

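The heavy chain variable (V) segments of the antibody genes were measured in colon messenger RNA of 8 mice in which colitis had been induced chemically. The deposited table holds 53465 genes, of which 185 carry a symbol that starts with Ighv. Of these, 70 are annotated as pseudogenes and 115 are not, and the 76 of the 115 whose value averaged at least 3 over the 8 libraries are described as expressed segments. The values are regularised log2 values (rlog), a form of count data on a log2 scale in which library size is taken out and weakly expressed genes are drawn toward their mean. The average level chose the 76 segments, so the levels are given as a description and carry no test.

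The groups were 4 wild-type mice, which kept Arg1, and 4 Arg1 ko mice, littermates with a conditional deletion of this gene for arginase 1, an enzyme that cleaves arginine to ornithine and urea. Both groups were on the B6 background, 7 to 12 weeks old and matched by age and sex. All 8 mice drank 2.5% dextran sulfate sodium (DSS), which injures the colon lining, for a week and plain water afterwards until day 10, so no mouse without colitis was available for comparison. The deletion is described as cell-specific, but neither the cell type nor the Cre driver is given. The sample numbers form a separate run for each genotype, without being called batches, so a batch that followed them and the genotype cannot be told apart. The source is given as colon, and the extraction protocol speaks of epithelial aggregates freed with 30 mM EDTA after removal of the Peyer's patches. In the values, the epithelial genes Epcam (mean rlog 15.35) and Krt8 (16.11) stood beside the smooth muscle genes Acta2 (14.75) and Myh11 (14.83) and the IgA constant region Igha (15.62), so the RNA did not come from epithelium alone.

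An antibody heavy chain is assembled in each developing B cell by joining a single V segment to a D and a J segment, and the joined exon is spliced to a constant region such as Igha. The V segment encodes the signal peptide and most of the antigen-binding domain, with the loops CDR1 and CDR2. Its last codons begin the loop CDR3, which the D and J segments complete. A B cell expresses a single productive heavy chain, and its daughters inherit the same V segment. In the gut wall most antibody RNA comes from plasma cells that secrete IgA, so the level of a V segment in bulk tissue sums over all plasma cells and B cells that use it. Fewer such cells and less antibody RNA in each cell cannot be told apart in bulk RNA.

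The sequences of 8 segments are shown because the results turn on them. They are the last 300 bases of the coding part of GENCODE vM21 transcripts on GRCm38, which leaves out most of the signal peptide, all on the minus strand of chromosome 12, printed from 5′ to 3′, and they are germline reference sequence rather than the rearranged, mutated antibody RNA of these mice. Ighv1-81 (chr12:115920279-115920712), Ighv3-6 (chr12:114288152-114288582) and Ighv1-26 (chr12:114788372-114788805) were among the 10 highest segments of every library. Ighv14-2 (chr12:113994469-113994898) and Ighv1-12 (chr12:114615850-114616318) were the segments in which a single library stood farthest above the next. Ighv2-5 (chr12:113685482-113686045) was the expressed segment in which the genotypes did not overlap. Capitals run from the last in-frame cysteine codon to the end of the segment, and the germline start of CDR3 follows that codon.
Ighv1-81: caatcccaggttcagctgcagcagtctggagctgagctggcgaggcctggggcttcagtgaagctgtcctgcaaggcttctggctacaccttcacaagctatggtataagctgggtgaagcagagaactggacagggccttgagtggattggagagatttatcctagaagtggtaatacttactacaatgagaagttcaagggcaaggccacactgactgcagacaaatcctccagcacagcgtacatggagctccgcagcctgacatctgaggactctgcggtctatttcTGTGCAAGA
Ighv3-6: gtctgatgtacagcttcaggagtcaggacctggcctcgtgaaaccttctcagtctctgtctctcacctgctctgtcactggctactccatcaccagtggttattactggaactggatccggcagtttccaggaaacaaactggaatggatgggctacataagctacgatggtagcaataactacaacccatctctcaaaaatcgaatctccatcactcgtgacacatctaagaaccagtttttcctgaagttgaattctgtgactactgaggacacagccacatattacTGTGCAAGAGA
Ighv1-26: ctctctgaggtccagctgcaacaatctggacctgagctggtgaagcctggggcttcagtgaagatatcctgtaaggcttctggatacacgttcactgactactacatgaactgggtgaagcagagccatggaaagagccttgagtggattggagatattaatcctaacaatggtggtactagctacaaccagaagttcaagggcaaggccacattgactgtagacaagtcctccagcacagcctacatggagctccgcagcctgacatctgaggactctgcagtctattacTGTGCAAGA
Ighv14-2: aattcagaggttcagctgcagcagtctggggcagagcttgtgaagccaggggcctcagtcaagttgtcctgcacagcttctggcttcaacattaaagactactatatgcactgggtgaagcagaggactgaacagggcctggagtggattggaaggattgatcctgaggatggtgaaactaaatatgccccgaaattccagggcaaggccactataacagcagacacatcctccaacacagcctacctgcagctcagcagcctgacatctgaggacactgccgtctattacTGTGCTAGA
Ighv1-12: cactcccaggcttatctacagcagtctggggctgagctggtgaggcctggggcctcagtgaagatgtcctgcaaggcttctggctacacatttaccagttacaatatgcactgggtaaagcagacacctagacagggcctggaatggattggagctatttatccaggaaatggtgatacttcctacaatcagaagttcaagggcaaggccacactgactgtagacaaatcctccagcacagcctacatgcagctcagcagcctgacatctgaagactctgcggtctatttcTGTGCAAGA
Ighv2-5: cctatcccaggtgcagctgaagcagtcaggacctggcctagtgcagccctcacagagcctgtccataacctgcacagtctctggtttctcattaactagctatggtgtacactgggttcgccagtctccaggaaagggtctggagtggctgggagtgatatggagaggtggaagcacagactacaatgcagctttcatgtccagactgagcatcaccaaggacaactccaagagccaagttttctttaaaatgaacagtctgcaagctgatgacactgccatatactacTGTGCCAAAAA
The capital part TGTGCAAGA was the complete end of 37 of the 76 expressed segments, Ighv1-81, Ighv1-26 and Ighv1-12 among them, and 48 of the 76 ends started with it. Ighv3-6 carried the same letters followed by GA, while Ighv14-2 ended in TGTGCTAGA and Ighv2-5 in TGTGCCAAAAA.

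Many segments are near copies of each other, which bears on every value below. The median identity of an expressed segment to its nearest other segment was 94.9% over the coding part (range 76.5% to 99.2%). Of the windows of 50 bases in an expressed segment, a median of 21.7% also occurred in the transcript of another gene, and in 7 of the 76 segments more than 50% did. Those 7 were Ighv1-72, Ighv1-52, Ighv1-61, Ighv1-84, Ighv1-53, Ighv2-2 and Ighv1-50, named after their values were seen, and their levels are uncertain because reads may have been split or dropped. The sources used here do not give how reads matching several places were counted. The closest pair with an expressed member is printed with its 3 differing bases in capitals, Ighv1-72 (chr12:115757984-115758461) and Ighv1-62-3 (chr12:115460999-115461485).
Ighv1-72: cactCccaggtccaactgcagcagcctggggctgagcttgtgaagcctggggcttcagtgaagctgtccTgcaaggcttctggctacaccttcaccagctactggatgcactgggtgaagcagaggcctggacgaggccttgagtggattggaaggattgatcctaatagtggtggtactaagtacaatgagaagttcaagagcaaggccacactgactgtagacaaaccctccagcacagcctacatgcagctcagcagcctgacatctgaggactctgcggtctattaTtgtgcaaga
Ighv1-62-3: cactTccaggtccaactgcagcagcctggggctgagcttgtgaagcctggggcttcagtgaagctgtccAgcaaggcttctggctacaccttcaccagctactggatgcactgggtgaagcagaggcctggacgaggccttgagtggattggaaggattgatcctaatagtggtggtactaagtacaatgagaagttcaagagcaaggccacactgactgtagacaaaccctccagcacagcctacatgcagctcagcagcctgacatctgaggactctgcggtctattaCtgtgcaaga
Ighv1-72, the segment known for dominating the response of B6 mice to the hapten NP, averaged 6.47 on the rlog scale, with 6.95, 6.05, 6.17 and 5.80 across the 4 libraries labelled wild type and 6.82, 6.34, 6.53 and 7.09 in Arg1 ko 1 to 4. Its partner Ighv1-62-3 averaged -0.40 and lay between -0.46 and -0.14 in the 8 libraries. In Ighv1-72, 92.5% of the 50-base windows were shared with another transcript. Read in frame, the middle capital makes a cysteine codon (TGC) of Ighv1-72 into AGC in Ighv1-62-3. Whether the partner's low value depends on the shared windows or on any of the 3 differing bases was not tested.

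The library labelled wild type 3 went against its label in Arg1 and in its distances over all tested genes. Its Arg1 value was 5.02 on the rlog scale, against 5.59, 5.57 and 5.58 in wild type 1, 2 and 4 and 5.06, 4.87, 5.15 and 5.19 in Arg1 ko 1 to 4, so it lay inside the ko range. Over the 8 libraries the Arg1 difference, Arg1 ko minus wild type, was -0.37 (limma adjusted p = 0.522). A two-sided exact test that permuted the labels over all 70 assignments gave p = 0.114, with 0.0286 the smallest possible value. Without the library labelled wild type 3 it was -0.51 (limma adjusted p = 0.0418), a value enlarged by leaving out the lowest wild-type library. Over the 16380 tested genes its Euclidean distance was 26.2 to 36.9 to the ko libraries but 55.9 to 69.6 to the other wild-type libraries, while ko libraries lay 23.8 to 29.8 from each other. Wild type 1, 2 and 4 lay 40.5 to 75.2 from each other. By Arg1 and by these distances the library thus sat with the ko libraries, and whether its label is right is in doubt. Over the 76 segments alone it was instead the one farthest from the other 7, with a mean distance of 9.62 against 7.30 to 8.86. Genotype results are therefore given with and without it.

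Over the 8 libraries the expressed segments averaged between 3.04 and 10.04 on the rlog scale, with a median of 5.84. Of the 76, 10 averaged at least 8, 45 lay between 5 and 8, and 21 lay below 5. Transcript lengths ran from 347 to 480 bases, so correcting for length changed the order little, and the 10 highest segments by mean rlog were also the 10 highest per kilobase (rlog minus log2 of the length in kb). They were Ighv1-81, Ighv3-6, Ighv1-26, Ighv8-12, Ighv1-53, Ighv1-82, Ighv6-3, Ighv1-76, Ighv10-1 and Ighv1-18. Their levels per kilobase ran from 11.55 for Ighv1-81 to 9.50 for Ighv10-1 on the log2 scale.

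Ighv1-81 was the highest segment. Its rlog value was 10.27, 9.32, 10.90 and 9.61 across the 4 libraries labelled wild type and 10.28, 10.00, 10.34 and 9.63 in Arg1 ko 1 to 4. Ighv3-6 followed with 9.93, 9.93, 9.76 and 9.53 in wild type and 9.26, 9.33, 9.15 and 9.85 in Arg1 ko. Both were high in every library, and their means, 10.04 and 9.59, differed by less than the SD of Ighv1-81 over the 8 libraries (0.51). Ighv1-26 came next, with 8.59, 7.92, 9.81 and 8.22 in wild type and 9.04, 9.05, 8.45 and 8.94 in Arg1 ko, highest in the library labelled wild type 3. The neighbouring ranks below it did not differ beyond their spread. Ighv8-12, Ighv1-53, Ighv1-82, Ighv6-3, Ighv1-76, Ighv10-1 and Ighv1-18 had mean rlog values between 8.62 and 8.01 with SDs of 0.67 to 0.92.

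**Figure D1:**
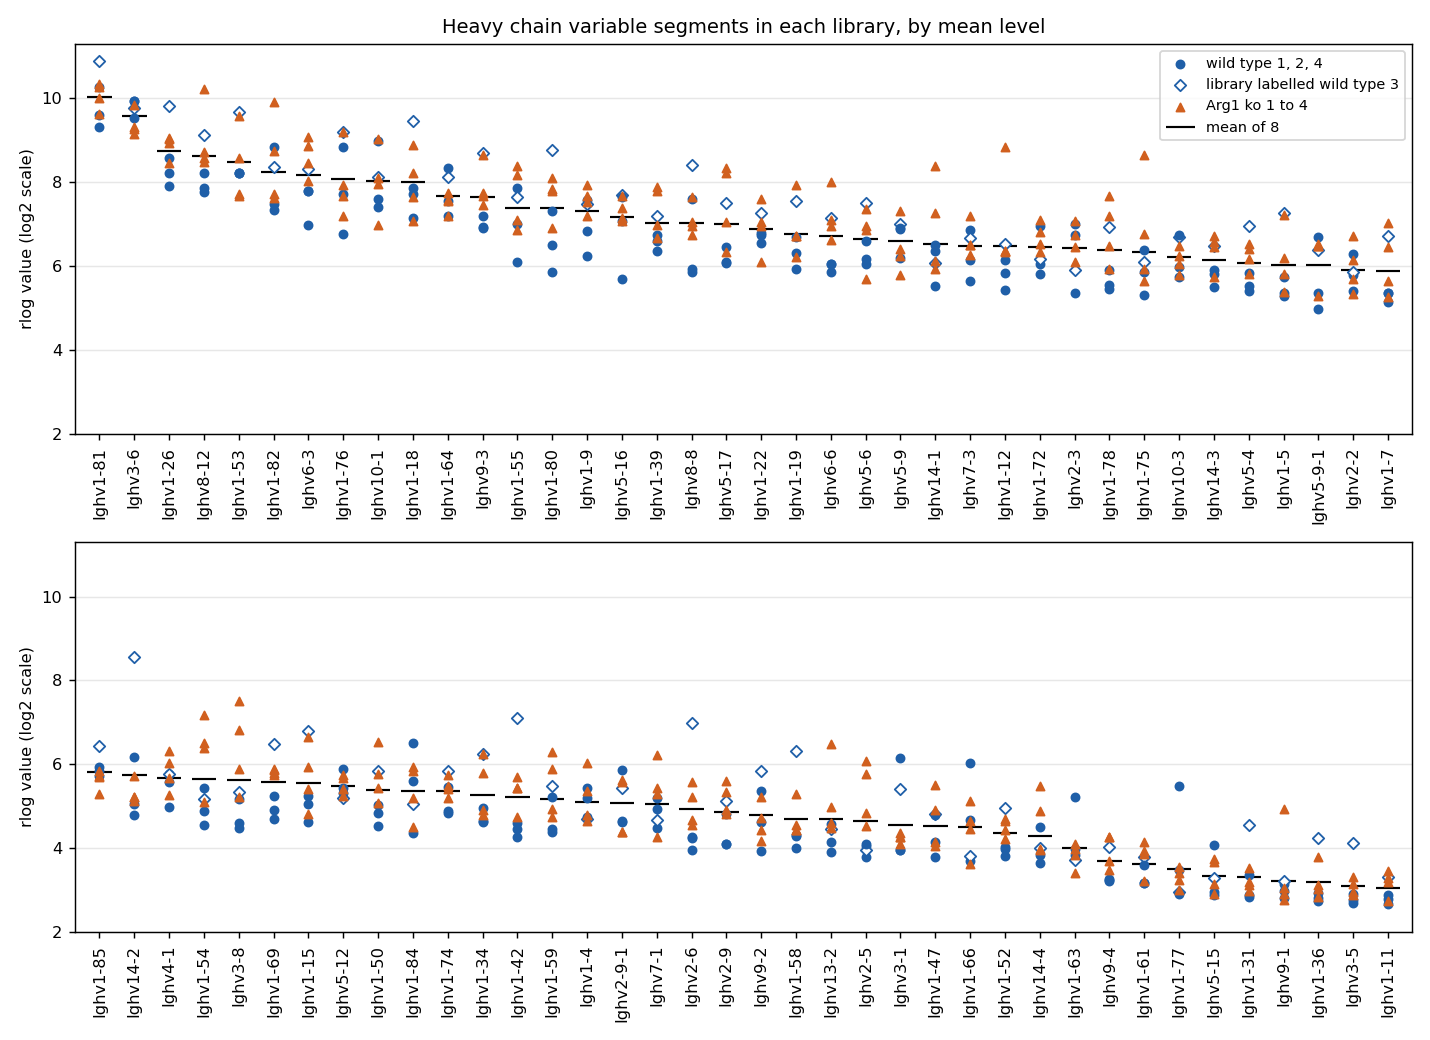
Each column is an expressed segment, ordered by its mean, and the vertical axis is the rlog value (log2 scale). Filled circles are wild type 1, 2 and 4, open diamonds the library labelled wild type 3, triangles Arg1 ko 1 to 4, and bars the mean of 8. Means fall from 10.04 to 3.04, and single libraries stand far above the rest in segments such as Ighv14-2, Ighv1-12 and Ighv1-75.

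Shares of the V segment pool were formed by returning the values per kilobase to a linear scale and dividing by the sum over the 76 segments in that library. Because rlog draws values toward each gene's mean, such shares are approximate and understate the differences between mice. The 10 segments of highest mean held 56.6%, 55.9%, 54.1% and 49.9% of the pool across the 4 libraries labelled wild type and 50.5%, 49.6%, 50.2% and 49.99% in Arg1 ko 1 to 4. This was 54.1% ± 2.99 (SD, n = 4) for wild type and 50.1% ± 0.39 (SD, n = 4) for Arg1 ko, and the groups overlapped, since wild type 4 fell among the ko libraries. To reach 50% of the pool took 8 to 9 segments in wild type and 8 to 10 in Arg1 ko. The effective number of segments, the inverse of the summed squared shares, was 18.5, 19.3, 21.1 and 22.2 in wild type and 21.9, 25.3, 19.7 and 28.9 in Arg1 ko, with overlapping ranges.

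Which segment led differed between mice. Ighv1-81 had the largest share in 6 of the 8 libraries and Ighv3-6 in the other two, wild type 2 (15.6% of the pool) and Arg1 ko 4 (7.96%). The share of Ighv1-81 ran from 6.80% in Arg1 ko 4 to 17.2% in Arg1 ko 3. Behind these, a place among the 3 highest was held by Ighv10-1 in wild type 1, by Ighv1-82 in wild type 2, by Ighv8-12 and Ighv1-82 in Arg1 ko 1, by Ighv8-12 in Arg1 ko 3 and by Ighv1-53 in Arg1 ko 4. Ighv1-26 held it in wild type 4, in Arg1 ko 2 and in the library labelled wild type 3. In all, 21 segments entered the 10 highest of at least a single library, and 3 did so in all 8.

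At the lower end, the average of 3 divides a continuous range. Just above it lay Ighv1-36 (mean rlog 3.19), Ighv3-5 (3.10) and Ighv1-11 (3.04), and just below it Ighv1-20 (2.95), Ighv5-2 (2.65) and Ighv11-2 (2.61). Ighv1-11 was the expressed segment that reached an average of 3 through a single group, its Arg1 ko mean of 3.17 ± 0.30 (SD, n = 4) standing against 2.91 ± 0.28 (SD, n = 4) for wild type. Of the 39 segments below 3, 13 were listed at 0 in all libraries, and 4 of the other 26 reached 3 in at least a single library. Those 4 were Ighv1-20, Ighv5-2, Ighv11-2 and Ighv8-2, of which the last was named after its values were seen. None of the 70 pseudogenes averaged 3. The highest was Ighv1-2 at 1.25, and 52 were listed at 0.

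Some segments are known for particular B cell subsets or antigens and were looked up whatever their level. Ighv5-2 is the most J-proximal of the 115 segments and is known for overuse by early B cell precursors and fetal B cells. Its rlog value was 2.31, 2.51, 3.80 and 2.37 across the 4 libraries labelled wild type and 2.54, 2.52, 2.28 and 2.85 in Arg1 ko. Ighv11-2 and Ighv12-3 are used by B-1 cells that bind phosphatidylcholine, and they averaged 2.61 and 0.44. Ighv7-1, the segment of the classical antibodies to phosphorylcholine, was expressed, with 4.49, 5.20, 4.67 and 4.93 in wild type and 6.21, 5.28, 4.26 and 5.43 in Arg1 ko. Its groups overlapped.

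Segments are grouped into families by sequence similarity, and the first number of a symbol names the family. Family 1, the largest of the mouse locus, had 54 of the 115 segments and 40 of the 76 expressed ones, and it held 56.3% of the pool on average, from 51.4% to 61.7% over the libraries. Family 3 held 10.2% of the pool, and Ighv3-6 alone held 9.25%. The share of family 3 was 13.1%, 16.3%, 7.27% and 12.4% across the 4 libraries labelled wild type and 6.82%, 7.95%, 8.59% and 9.61% in Arg1 ko, so 3 wild-type libraries lay above all ko libraries and the library labelled wild type 3 fell between ko libraries. Family 5 had 8 of 11 segments expressed and 7.15% of the pool. Family 8 had only 2 of 9 segments expressed, Ighv8-12 and Ighv8-8, and still held 6.31%, with 11.9% in Arg1 ko 1 against 4.30% to 6.66% in the others. Family 6, also with 2 expressed segments, held 3.45%, 4.37%, 3.40% and 2.97% in wild type and 4.43%, 8.04%, 4.71% and 5.67% in Arg1 ko, and these ranges did not overlap, while those of the other families did. This share was not tested, and it rests on Ighv6-3 and Ighv6-6, described with the genotype comparison. Families 9 and 14 had all 4 of their segments expressed, while families 11, 12, 15 and 16 had none.

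The 115 segments lie along 148.7 to 2570.2 kb from the J cluster, and expressed ones occurred over the full length. Cut into 4 stretches from the J-proximal to the distal end, 20 of 29, 19 of 29, 17 of 29 and 20 of 28 segments were expressed. These stretches held 14.3%, 26.8%, 22.5% and 36.3% of the pool. The largest share was thus in the most distal stretch, which contains Ighv1-81, Ighv1-82, Ighv1-76 and Ighv8-12. Level per kilobase and distance were weakly related over the 76 expressed segments (Pearson's r = 0.16, Spearman's rho = 0.13), a description only, since segments of a family share sequence, position and the same 8 libraries.

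**Figure D2:**
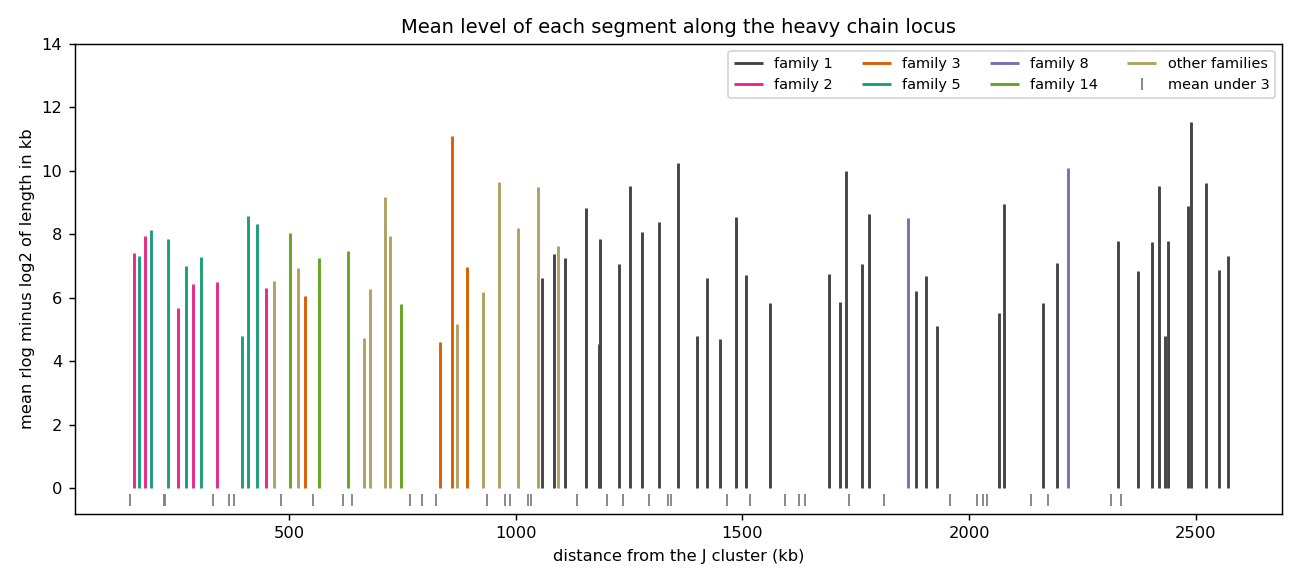
Bars give the mean level of each expressed segment (rlog minus log2 of length in kb) against its distance from the J cluster in kb, coloured by family. Short ticks under the axis mark segments with a mean under 3. High bars stand at both middle and distal positions, with Ighv1-81 at 2490.4 kb the highest.

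The level of V segments varied between mice far more than that of most genes. The SD over the 8 libraries had a median of 0.65 for the 76 segments, against 0.21 for all 16380 genes tested, which are those with a mean of at least 3 that were not constant. Of the 76, 65 (85.5%) lay above the 95th percentile of all tested genes, an SD of 0.45. All tested genes had a higher median level (8.62 against 5.84), and no value for genes of like level was formed. The 77 expressed light chain V segments had a similar median SD, 0.64. Related lists described below also exceeded the 0.21 of all tested genes. Their medians were 0.45 for heavy chain constant regions, 0.54 for light chain constant regions, 0.50 for B cell genes and 0.36 for plasma cell genes. Within the groups the segments' SDs had medians of 0.62 for wild type and 0.56 for Arg1 ko, against 0.26 and 0.096 for all tested genes. Without the library labelled wild type 3 the wild-type median was 0.36, against 0.23 for all tested genes, so much of the wild-type spread rests on that library. For heavy chain constant regions, light chain constant regions, B cell genes and plasma cell genes the wild-type medians were 0.66, 0.73, 0.69 and 0.45. Without that library they were 0.41, 0.86, 0.29 and 0.48. In Arg1 ko they were 0.26, 0.39, 0.13 and 0.16, below the 0.56 of the segments.

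This spread came in part from libraries that were high in many segments and in part from single libraries with a high value of a single segment. In 50 of the 76 segments a library exceeded the median of the other 7 by more than 1 on the rlog scale, and in 10 by more than 2. An excess over 1 occurred in 23 segments in the library labelled wild type 3, 20 in Arg1 ko 4 and 15 in Arg1 ko 1. After each library's median over the 76 segments was subtracted, these counts were 5, 6 and 5. In wild type 1, 2 and 4 and Arg1 ko 2 and 3 they were 7, 1, 1, 5 and 4 before and 6, 3, 5, 9 and 4 after. In 14 segments the highest library was more than 1 above the next. The share of all tested genes with such excesses was not determined, so these counts only describe the segments. The range over the 8 libraries had a median of 1.89 for the segments, 1.82 for light chain V segments and 0.63 for all tested genes. The segment of largest SD was Ighv14-2, with 6.17, 4.78, 8.56 and 5.04 across the 4 libraries labelled wild type and 5.22, 5.13, 5.73 and 5.22 in Arg1 ko. The value of the library labelled wild type 3 was 2.39 above the next. This segment made up 2.83% of the pool there and 0.321% to 0.875% elsewhere.

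Other single-library peaks were in Arg1 ko mice. Ighv1-12 had 5.84, 5.44, 6.52 and 6.14 across the 4 libraries labelled wild type and 8.85, 6.34, 6.36 and 6.36 in Arg1 ko 1 to 4. Ighv1-75 had 6.39, 5.32, 6.10 and 5.86 in wild type and 6.78, 5.64, 5.93 and 8.65 in Arg1 ko. Ighv1-12 therefore peaked in Arg1 ko 1 and Ighv1-75 in Arg1 ko 4, while the other 7 libraries lay between 5.44 and 6.52 for Ighv1-12 and between 5.32 and 6.78 for Ighv1-75. Ighv3-8 was high in Arg1 ko 1 (6.82) and 4 (7.51) against 4.49 to 5.88 elsewhere, and Ighv2-6 was high in the library labelled wild type 3 (6.98) against 3.97 to 5.57 elsewhere. These peaks are descriptions of single mice, each measured in a single library.

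A few segments were even across mice. Among those averaging at least 5, Ighv5-12 had the smallest SD, 0.25, with 5.33, 5.44, 5.19 and 5.90 across the 4 libraries labelled wild type and 5.74, 5.42, 5.25 and 5.67 in Arg1 ko. It still exceeded the SD of 64.3% of all tested genes. Ighv3-6, Ighv1-85, Ighv1-74 and Ighv10-3 followed, with SDs of 0.32 to 0.39.

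**Figure D3:**
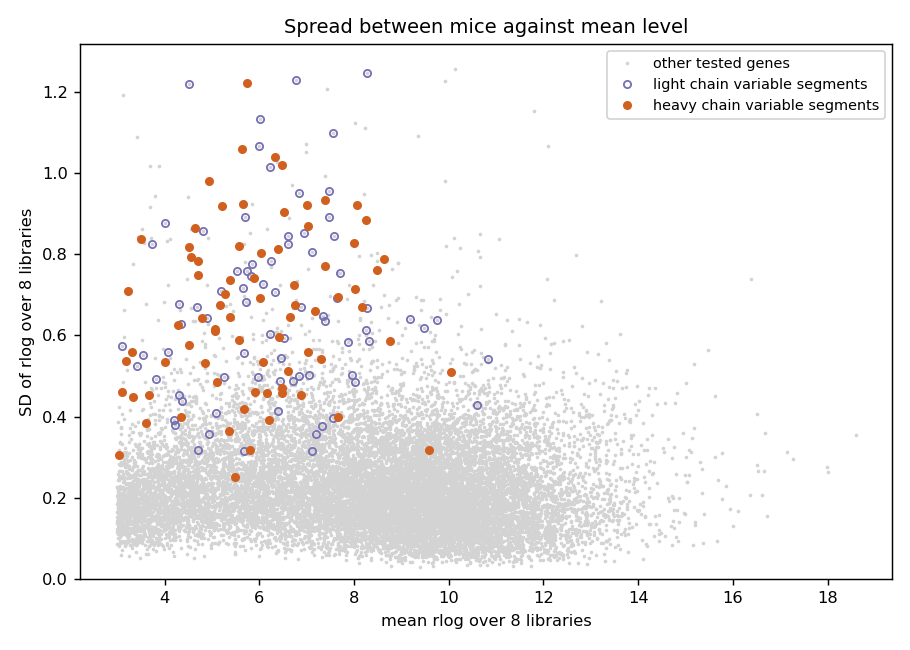
Each point is a tested gene, with its mean rlog over 8 libraries on the horizontal axis and its SD over the 8 libraries on the vertical axis. Heavy chain (filled) and light chain (open) V segments lie mostly above the other genes (grey) at the same mean, with median SDs of 0.65 and 0.64 against 0.21 for all tested genes.

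Libraries also differed in the segments as a whole. The library labelled wild type 3 had the highest value of 25 segments, Arg1 ko 4 of 17 and Arg1 ko 1 of 15, while wild type 2 had the lowest value of 29 segments, wild type 4 of 16 and wild type 1 of 14. After centring each segment on its mean over 8 libraries, the median over the 76 segments was -0.34, -0.46, 0.38 and -0.45 across the 4 libraries labelled wild type and 0.27, -0.04, -0.15 and 0.33 in Arg1 ko 1 to 4. Wild type 1, 2 and 4 were thus the lowest, and the library labelled wild type 3 was the highest of all. Segments moved together to a limited degree, with a median Pearson's r of 0.29 over the 2850 pairs of segments and 8 libraries, 74.0% of pairs being positive.

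**Figure D4:**
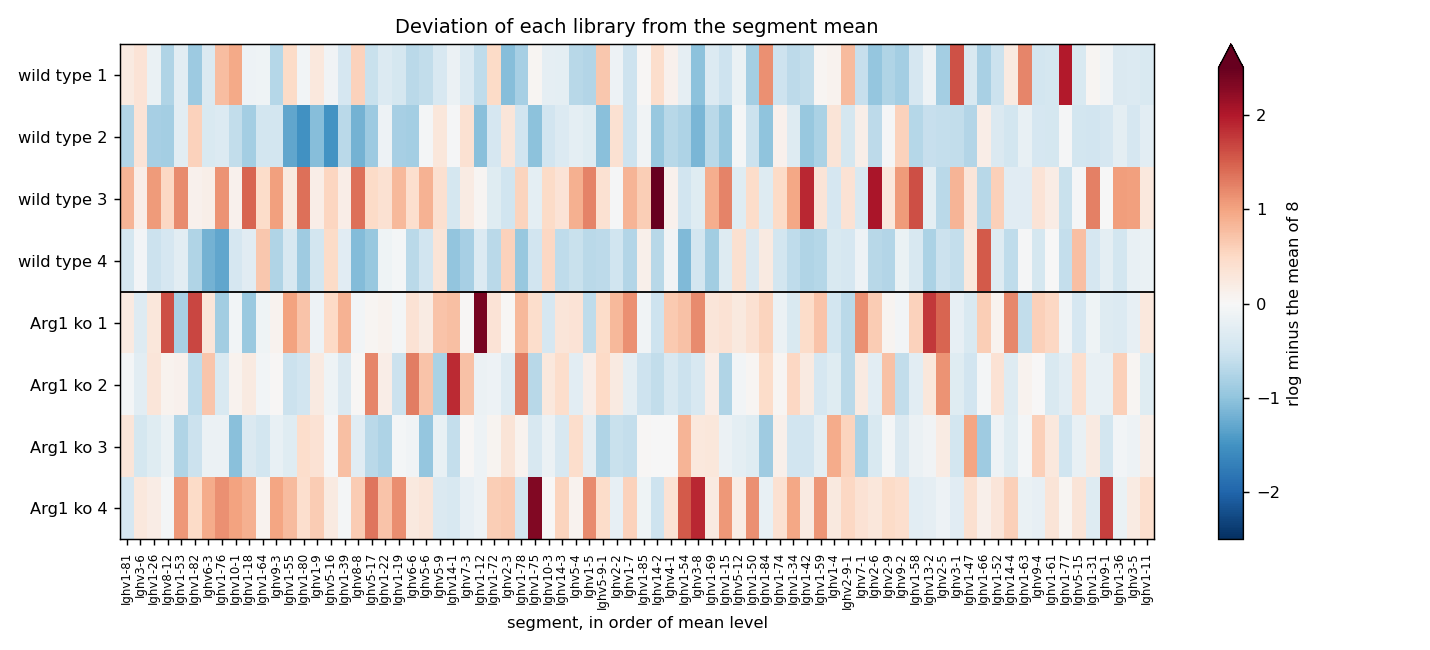
Rows are libraries and columns the 76 segments in order of mean level, and colour gives the rlog value minus the segment's mean of 8, red for higher and blue for lower. Wild type 1, 2 and 4 are mostly blue, the library labelled wild type 3 mostly red, and isolated dark red cells mark single-library peaks such as Ighv14-2 (8.56 in the library labelled wild type 3).

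The genotype comparison asked whether segment levels differed between Arg1 ko and wild type. None of the 76 segments passed the test over all tested genes (limma, adjusted p under 0.05; background 0% of 16380 genes), and the smallest adjusted p was 0.522. At an unadjusted p under 0.05 there were 8 segments, 10.5%, against 9.1% of all tested genes. Of these, 7 were higher in Arg1 ko (background 4.73%) and 1, Ighv3-6, was lower (background 4.37%). In mean, 56 of the 76 were higher in Arg1 ko and 20 lower, where 51.2% of all tested genes were higher. After each library's median over the 76 segments was subtracted, 39 were higher and 37 lower, a split that this step itself brings close to even. The median difference, Arg1 ko minus wild type, was 0.28 on the rlog scale against 0.0064 for all tested genes, and 0.25 after the library medians were aligned or the libraries quantile normalised. It was 0.16 without wild type 2 and 0.18 without Arg1 ko 4. Genes of other cell types of the colon wall are given beside this. Their median difference was 0.38 for 4 fibroblast genes, 0.0025 for 4 smooth muscle genes, 0.058 for 8 epithelial genes and -0.0056 for 8 T cell genes. The median deviation of the 4 fibroblast genes from their means was -0.38, -0.33, 0.08 and -0.23 across the 4 libraries labelled wild type. It was 0.21, 0.18, 0.17 and 0.21 in Arg1 ko. Of these, the collagen genes Col1a1 and Col3a1 differed by 0.83 and 0.70, with every ko value above every wild-type value (background 2.36% of tested genes). Neither passed over the 8 libraries (limma adjusted p = 0.522 for both). Without the library labelled wild type 3 both passed (limma adjusted p = 0.0244 and 0.0269, background 6.14% of tested genes). Dcn (-0.11) and Pdgfra (0.06) passed in neither fit. The part of fibroblast content in the segment values was not tested.

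The segments of smallest p were Ighv2-5, Ighv1-54, Ighv3-8, Ighv6-3 and Ighv6-6 on the higher side. Ighv2-5 had 3.79, 4.05, 3.96 and 4.10 across the 4 libraries labelled wild type and 6.08, 5.77, 4.84 and 4.52 in Arg1 ko 1 to 4. It was the expressed segment whose 4 ko values all lay above the 4 wild-type values, 1 of 76 against 2.36% of all tested genes, and no segment lay entirely below (background 1.67%). Its difference was 1.33 (95% interval 0.64 to 2.01, unadjusted), with a limma adjusted p of 0.522 that ranged from 0.0614 to 0.819 over the alternatives. It was a minor segment, 0.24% of the pool on average.

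Ighv1-54 had 5.42, 4.89, 5.17 and 4.54 in wild type and 6.39, 5.11, 6.49 and 7.18 in Arg1 ko, a difference of 1.29 with Arg1 ko 2 inside the wild-type range. Ighv3-8 had a difference of 1.46, carried by Arg1 ko 1 and 4 as given above. Neither passed (limma adjusted p = 0.522 for both). The family 6 segments were steadier. Ighv6-3 had 7.80, 7.78, 8.31 and 6.99 in wild type and 8.47, 8.87, 8.03 and 9.09 in Arg1 ko, a difference of 0.89. Ighv6-6 had 6.04, 5.87, 7.14 and 6.05 in wild type and 7.09, 8.01, 6.63 and 6.96 in Arg1 ko, a difference of 0.90. In both, the library labelled wild type 3 was the wild-type value that overlapped the ko range.

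On the lower side Ighv3-6 averaged 9.79 ± 0.19 (SD, n = 4) for wild type against 9.40 ± 0.31 (SD, n = 4) for Arg1 ko and differed by -0.39 (limma adjusted p = 0.522), with Arg1 ko 4 inside the wild-type range. Ighv1-85 differed by -0.34, Ighv3-1 by -0.62, Ighv14-2 by -0.81 and Ighv1-63 by -0.36. The last 3 rest on single wild-type libraries. Ighv14-2 differed by -0.0084 without the library labelled wild type 3, Ighv3-1 by -0.19 and Ighv1-63 by -0.02 without wild type 1, whose values of 6.15 and 5.22 were the highest.

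Leaving out the library labelled wild type 3 changed the counts. Without it 3 of the 76 segments passed (limma adjusted p under 0.05; background 6.14% of tested genes in either direction and 2.85% higher), all higher in Arg1 ko. They were Ighv6-6 (difference 1.18, limma adjusted p = 0.0484), Ighv1-42 (0.88, 0.0492) and Ighv1-69 (0.88, 0.0284), the others besides Ighv6-6 being named after their values were seen. Ighv1-42 had 4.60, 4.27 and 4.46 in wild type 1, 2 and 4, 7.10 in the library labelled wild type 3, and 5.69, 5.44, 4.75 and 5.44 in Arg1 ko. Ighv1-69 had 5.23, 4.90 and 4.70, then 6.49, and 5.88, 5.75, 5.86 and 5.80 in the same order. In each, the library left out held a value above all or most ko values, so leaving it out enlarges the difference by construction.

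In that comparison of 3 against 4 libraries, 24 segments had an unadjusted p under 0.05, all higher in Arg1 ko, against 28.1% of tested genes in either direction and 13.9% higher. In 15 segments every ko value was above every wild-type value, against 12.5% of tested genes, and in 0 below, against 13.1%. In mean 62 were higher and 14 lower, and the median difference was 0.50. Among the leading segments Ighv1-26 differed by 0.62 without that library and 0.23 with it, Ighv8-12 by 1.05 and 0.75, and Ighv1-81 by 0.33 and 0.04. Ighv3-6 stayed lower at -0.40.

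The other genes of the antibody and B cell lineage did not all follow the segments. Igha, the IgA constant region, had 16.43, 15.34, 15.85 and 14.93 across the 4 libraries labelled wild type and 15.73, 15.45, 15.38 and 15.86 in Arg1 ko, a difference of -0.03 that turned positive in other fits. The summed V segment value per kilobase minus that of Igha, both on the log2 scale, was -0.57, 0.13, 0.70 and 0.58 in wild type and 0.54, 0.52, 0.35 and 0.50 in Arg1 ko. Wild type 1 thus had the highest Igha value of the 8 libraries with a summed V segment value of 14.52, inside the range of the others (14.13 to 15.21). Of 7 tested heavy chain constant regions 0 were higher in Arg1 ko and 7 lower in mean, median -0.24, and 3 were higher and 4 lower (median -0.06) without the library labelled wild type 3. None passed in either fit. Of these, Ighm, the IgM constant region, had 8.49, 8.03, 9.28 and 7.70 in wild type and 8.46, 8.21, 8.31 and 8.32 in Arg1 ko, highest in the library labelled wild type 3.

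The 77 light chain V segments resembled the heavy chain ones, with 48 higher and 29 lower in mean, none past the limma test and a median difference of 0.16. Without the library labelled wild type 3 the median was 0.42. In that fit 17 had an unadjusted p under 0.05, all higher in Arg1 ko, against 28.1% of tested genes in either direction and 13.9% higher. The limma test was passed by 4 of the 77 (background 6.14% in either direction and 2.85% higher). These were Igkv12-41 (1.37, limma adjusted p = 0.0284), Igkv3-4 (1.32, 0.0289), Igkv3-12 (1.22, 0.0324) and Igkv7-33 (0.89, 0.0420), named after their values were seen. Their median deviations were -0.04, -0.55, 0.47 and -0.50 across the 4 libraries labelled wild type and 0.12, -0.03, -0.23 and 0.38 in Arg1 ko. The light chain constant regions had 1 of 4 higher and 3 lower in mean, with Igkc, the kappa constant region, at -0.08. Jchain, which joins IgA into dimers, differed by 0.02, and Pigr, the epithelial receptor that carries IgA into the lumen, by 0.0013. None of these constant region and transport genes passed the limma test with or without that library.

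Of 14 plasma cell genes 4 were higher and 10 lower in mean (median -0.06) and none passed. Txndc5 (-0.01), Sdc1 (-0.12), Xbp1 (-0.07) and Edem1 (0.06), which serve protein folding, the plasma cell surface and the secretory stress response, were the highest of the list, and the gut epithelium also expresses them. Mzb1, a chaperone of antibody assembly in plasma cells that was named after its values were seen, had 7.83, 6.80, 7.54 and 6.39 across the 4 libraries labelled wild type and 7.28, 6.79, 7.01 and 7.18 in Arg1 ko. Mzb1 was high in wild type 1, where V segments were low, and in the library labelled wild type 3, where they were high.

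Mature B cell genes moved with the library labelled wild type 3. Of 15 tested B cell genes 4 were higher and 11 lower in Arg1 ko in mean (median -0.20), with none past the limma test. Without that library 11 were higher and 4 lower (median 0.06), and 1 of the 15 passed, against 6.14% of all tested genes. It was Cd22 (0.58, limma adjusted p = 0.0394), an inhibitory coreceptor named after its values were seen. The median deviation of the list was 0.97 in that library and between -0.43 and 0.13 in the other 7. Pax5, which sets B cell identity and is off in plasma cells, had 3.30, 3.23, 5.27 and 3.46 in wild type and 3.39, 3.37, 3.48 and 3.31 in Arg1 ko, and it was named after its values were seen. Heavy chain constant regions stood at 0.93 in the same library, the T cell list at 0.15 and the epithelium list at -0.16. The part of mature B cells in the high V segment values of that library was not tested. In wild type 1, 2 and 4 the V segments were low while the B cell list was at 0.13, -0.30 and -0.43 and the plasma cell list at 0.19, -0.12 and -0.44, against -0.16 to -0.0090 and -0.12 to 0.11 in Arg1 ko.

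Of 7 tested germinal centre genes 4 were higher and 3 lower in mean, with none past the limma test and 2 at an unadjusted p under 0.05 (28.6%, against 9.1% of all tested genes). These were Bcl6, the germinal centre repressor, which differed by 0.29, and Fas, a death receptor that many cell types carry, which differed by -0.36. Without the library labelled wild type 3, 4 of the 7 were at an unadjusted p under 0.05, against 28.1% of all tested genes in that fit. Of the 7, 1 passed (background 6.14%), Fas (-0.45, limma adjusted p = 0.0405), with Bcl6 at a limma adjusted p of 0.0532. Rag1, which cuts DNA for V segment joining in precursors, was listed at 0 in all libraries, and Rag2 averaged 1.09. Of the 7 listed genes of V segment joining and B cell precursors, 1 reached the tested genes. It averaged 3.56 and differed by -0.28 (limma adjusted p = 0.567). Of 9 genes of plasma cell homing and survival 5 were higher and 4 lower, with Ccl28, the colonic chemokine that draws IgA plasma cells, at 0.02 and none past the limma test.

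**Figure D5:**
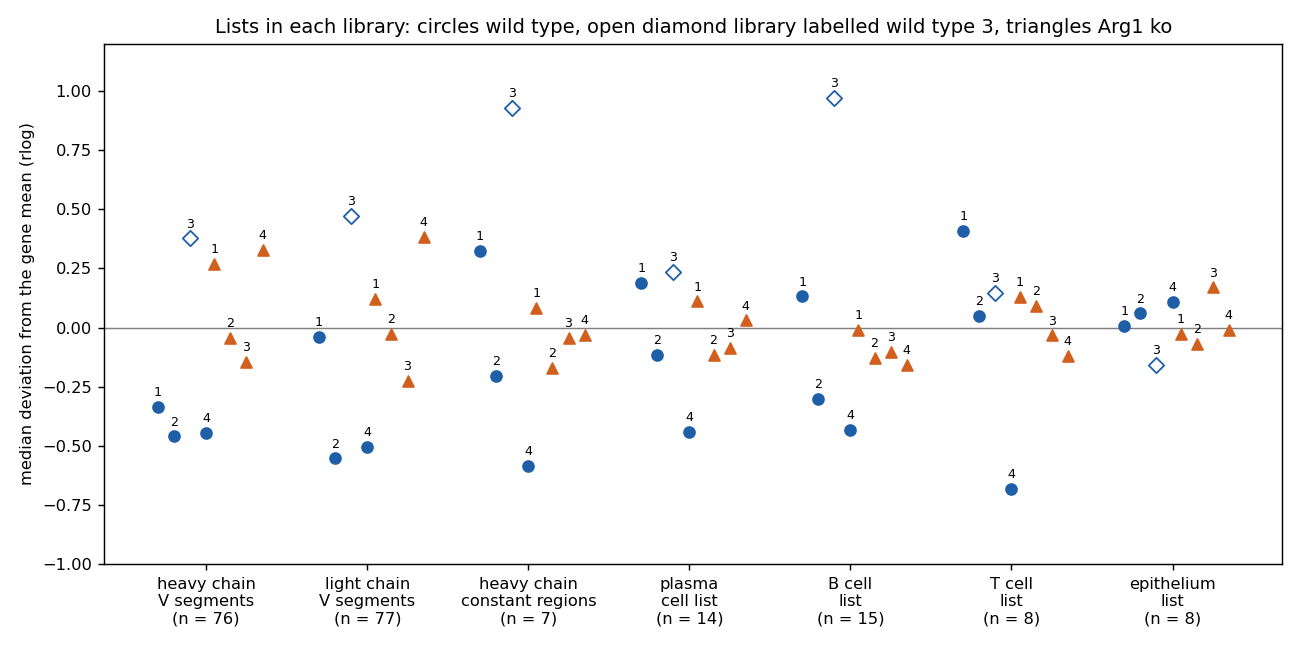
Each symbol is the median, over the genes of a list, of the rlog value minus the gene's mean of 8 libraries. Circles are wild type, open diamonds the library labelled wild type 3, and triangles Arg1 ko, with replicate numbers beside them. The B cell list stands at 0.97 in the library labelled wild type 3, and heavy chain V segments are lowest in wild type 1, 2 and 4 (-0.34, -0.46 and -0.45).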

How the data were processed

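Messenger RNA was measured in 8 colon libraries, 4 wild type and 4 Arg1 ko, made from 1000 ng of total RNA with a stranded mRNA kit, per the labels' protocols. The submitters' processing notes list DESeq2 1.16.1, featureCounts, Subread 1.5.3, STAR 2.5.2b, BWA 0.7.14-r1136 and the build GRCm38. The sources used here do not give their order, the annotation release, the strand setting or the handling of reads with several matches. The authors deposited rlog values, which are on a log2 scale. Counts are not kept in them, so the depth is unknown and no counting interval is given. All 8 columns were used.

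Ensembl IDs were matched to GENCODE vM21, and 53360 of 53465 rows had a symbol. Members and lists were chosen with earlier results of these data known. Groups follow the genotype label, with replicates numbered in order of deposit. P-values measure the spread between these libraries, each taken as a mouse. The 16380 non-constant genes with a mean rlog of 3 or more were fitted with limma 3.58.1 in R 4.3.3 (empirical Bayes with a mean trend, no covariate, two-sided, Benjamini-Hochberg adjustment at 0.05), and the script was tested on simulated data. Segments are named by fixed rules: the 10 of highest mean, the 5 of smallest p in each direction, the 5 of largest and the 5 of smallest SD (the latter with a mean of at least 5), each library's leader, the 3 on either side of the mean of 3, the ends of the expressed range, and Ighv11-2, Ighv12-3, Ighv7-1, Ighv1-72 and Ighv5-2. Of each list up to 4 genes of highest mean may be named, and names outside these rules are marked as chosen after their values were seen. Windows of 50 bases were cut from the whole transcripts, while alignments used their coding parts. Alternatives were other scalings, filters, variance settings, thresholds and leaving out each library.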

Additional observations from a re-analysis of the deposited data

Results flagged for a closer look

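Some libraries stood far from the other 3 of their group by Dixon's criterion for groups of 4. The rule was applied to 88 groups of values, and 10 met it. Chance alone meets it in about 1 in 20 groups of genes not picked by their values, but several of these genes were named for a wide spread or after their values were seen, so the count is not to be set against chance. In the library labelled wild type 3 the high values were Ighv1-53 at 9.67 (next highest wild type 8.22), Ighv6-6 at 7.14 (6.05), Ighv2-6 at 6.98 (4.27), Ighv1-36 at 4.24 (2.94), Ighv3-5 at 4.12 (2.91) and Pax5 at 5.27 (3.46). Its Arg1 value was low, at 5.02, against 5.57 in the next lowest wild-type library. Without the library labelled wild type 3, Ighv3-5 (mean rlog 3.10) averaged below 3, so that library brought it among the expressed segments. In Arg1 ko 1, Ighv8-12 stood at 10.23 (next highest ko 8.72) and Ighv1-12 at 8.85 (6.36). In Arg1 ko 3, Ighv14-2 stood at 5.73 (5.22). All are rlog values, and genes of the same library are not independent of each other.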

How the results depend on the processing

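Leaving out each library in turn gave 0 to 3 segments past the limma test, the 3 being without the library labelled wild type 3, and 5 to 24 at an unadjusted p under 0.05. It gave 1 to 15 segments with non-overlapping groups (higher in Arg1 ko in each case where that library was left out), a median difference of 0.16 to 0.50, an Arg1 difference of -0.51 to -0.31, 74 to 77 expressed segments and a share of the 10 leading segments of 51.5% to 52.5%. Of all tested genes, 9.1% had an unadjusted p under 0.05 with 8 libraries and 28.1% without the library labelled wild type 3. Every ko value lay above every wild-type value in 2.36% and 12.5% of them, and below in 1.67% and 13.1%. With no filter 2 segments did not overlap, with a mean of at least 5 there were 0, and 5 segments were then at an unadjusted p under 0.05. The shares over all genes were not determined for the other alternatives. Without the library labelled wild type 3, Ighv6-6 passed (limma adjusted p = 0.0484). Of 30 named segments 18 kept their sign in every alternative. Ranges that cross 0 when a library was left out were -0.20 to 0.33 for Ighv1-81, -0.0046 to 0.62 for Ighv1-26, -0.58 to 0.17 for Ighv1-53, -0.59 to 0.22 for Ighv1-76, -0.35 to 0.33 for Ighv10-1, -0.40 to 0.38 for Ighv1-18, -0.16 to 0.85 for Ighv2-6, -0.034 to 0.20 for Ighv5-12, -0.33 to 0.0045 for Ighv10-3, -0.19 to 0.36 for Ighv1-36, -0.19 to 0.29 for Ighv3-5, -0.12 to 0.34 for Ighv2-2, -0.27 to 0.23 for Igha, -0.28 to 0.25 for Ighm, -0.35 to 0.20 for Igkc, -0.24 to 0.25 for Jchain, -0.62 to 0.058 for Pax5 and -0.33 to 0.15 for Mzb1. Aligning library medians turned Ighv1-36 to -0.020 and Jchain to -0.0082, and quantile normalisation turned Ighv1-36 to -0.028, Igha to 0.028 and Igkc to 0.038. The cause was not tested. No paired analysis was possible because the labels give the samples no replicate numbers shared between genotypes.

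The depth behind the values is unknown, and rlog makes differences of weakly expressed segments too small. With 4 libraries a group and wide spread between mice, an adjusted p above 0.05 does not show that the genotypes are alike.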
